A study of Homo sapiens with 9 samples.

Results

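The transcripts described here are the long intergenic non-coding RNAs (lncRNAs) that carry a LINC number as their name. They were chosen by their mean of normalised reads, as all genes of the lncRNA biotype, named LINC followed by digits only, whose deposited mean was above 50 both in the table of the nuclear poly(A) binding protein (PABPN) and in that of the cytoplasmic one (PABPC). This gave 209 genes of the 2030 LINC genes in both tables, and of the 14581 genes of any biotype above the same mean. HEK293T cells, an established human embryonic kidney line, were wildtype and were crosslinked with 0.1% formaldehyde for 10 min. Lysate of each of 3 biological replicates was divided into input RNA, an RNA immunoprecipitation (RIP) with a PABPN antibody and a RIP with a PABPC antibody, which gave 3 libraries of each kind, all of total RNA depleted of ribosomal RNA. No library from a control antibody was analysed here, so unspecific binding was not measured in these values. Reads in introns and exons of a gene were counted together, and spliced and unspliced RNA cannot be told apart in these values.

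A LINC number is given to an lncRNA gene that lies apart from protein coding genes and has no name from a function. Such RNAs are mostly made by RNA polymerase II, and many are spliced and polyadenylated. PABPN binds the poly(A) tail while it is made in the nucleus, and PABPC covers the tails of RNAs in the cytoplasm, where it takes part in translation and in the control of decay. Many lncRNAs are known to stay in the nucleus, where some are bound to chromatin and some decay rapidly. Others are exported, and a few of these are translated into small proteins.

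The means that chose the members ran from 59.4 to 20805 normalised reads in the PABPN table, with a median of 256. In the PABPC table they ran from 51.4 to 10277, with a median of 165. Closest to the threshold on the inside were LINC02680, LINC01786 and LINC01135, with PABPC table means of 51.4, 53.0 and 53.0. Closest on the outside were LINC02137, LINC01498 and LINC02204, with PABPC table means of 49.8, 49.5 and 49.2. Each of these 6 genes had a PABPN table mean between 84.5 and 94.0, so it was the PABPC table that placed them. Altogether 61 LINC genes passed this mean with PABPN alone and 3 with PABPC alone.

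The deposited means carried enough digits to work out the whole reads of each library for 164 of the 209 members. For the other 45, mostly among the more abundant, only the 2 means were known. Over the 5916 genes of any kind with such reads, the libraries held between 2.05 and 2.94 M reads. The libraries are called a, b and c within each group, because nothing ties them to the replicate numbers of the labels. In each group 1 library lay above the others for these transcripts. Input a, PABPN RIP c and PABPC RIP a had members at a median of 0.111, 0.161 and 0.125 (log2) above their group's mean, against 0.037, 0.046 and 0.036 over all genes tested. The cells were checked by their markers. The means of LIN28B, VIM, PAX2 and NES, which HEK293T cells express, were between 208 and 9896 in the PABPN table, while ALB, PTPRC and INS, genes of other cell types, were at 8.64 or below.

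Both proteins bind RNA at its 3' end, and so the annotated 3' ends of the members at either extreme of PABPN over PABPC are shown first. The sequences are the last 30 bases of the canonical transcript, read 5' to 3' from hg38, with a polyadenylation hexamer (AATAAA or ATTAAA) in capitals. These ends are annotated and need not be the ones used in HEK293T cells. The 3 with the highest difference, LINC01950 (chr5:106815197-106815226, minus strand), LINC01611 (chr6:84421031-84421060, minus strand) and LINC01122 (chr2:59063737-59063766, plus strand), ended as follows.
LINC01950: taatgATTAAAgaataatgcctgaatccca
LINC01611: tcgaAATAAAagatatgaaataagtgaaaa
LINC01122: tttttgtaAATAAAgctttatcagaacata
The 4 with the lowest difference were LINC02381 (chr12:54147454-54147483, plus strand), LINC01547 (chr21:44932814-44932843, minus strand), LINC01232 (chr13:99486962-99486991, minus strand) and LINC01806 (chr2:161249066-161249095, plus strand).
LINC02381: ctttcagcagcAATAAAactcactcttaaa
LINC01547: ccttctgggggctcctccgacgcctgaggg
LINC01232: actttgAATAAAtctctgcttttgttgctt
LINC01806: tcatcaatacattctgttttaaatcataaa
Over the last 50 bases of the transcript strand, 100 of the 209 members (47.8%) held one of these hexamers. The same window held one in 42.2% of the 1440 other lncRNAs and in 82.1% of the 12450 protein coding genes that were above the same means and had a reference entry.

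The first question was how the LINC transcripts divided between the nuclear and the cytoplasmic protein. Most favored PABPN. Of the 164 members, 130 were higher with PABPN RIP than with PABPC RIP and 9 were lower, at an adjusted p of at most 0.01 and a difference beyond 0.5 on the log2 scale. Over all genes tested, 41.9% were higher and 30.1% were lower by the same rule. The median difference of the members was 1.86 (log2), with quartiles of 0.87 and 2.87. It was 1.40 over 1217 other lncRNAs, of which 834 were higher and 121 lower, and -0.11 over 4160 protein coding genes, of which 1281 were higher and 1599 lower. Differences are from limma-voom with Benjamini-Hochberg adjustment over all 5916 genes tested. The members were not tested as a group against other genes. The genes tested lack most abundant ones, since reads were worked out for 3.22% of genes with means over 1000. The 4160 protein coding genes are thus only a part of the 12452 above the same means. Among the 119 members whose reads were found with no likeness of libraries assumed, 91 were higher and 6 lower.

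**Figure D1:**
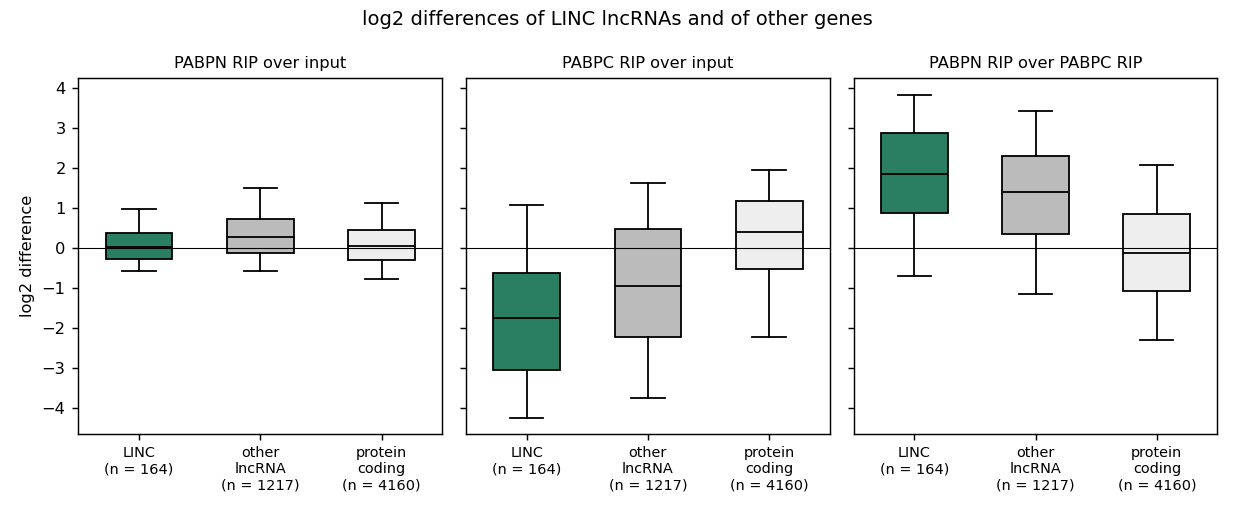
Log2 differences of PABPN RIP over input, PABPC RIP over input and PABPN RIP over PABPC RIP for 164 LINC lncRNAs, 1217 other lncRNAs and 4160 protein coding genes. Boxes show quartiles with the median as a line, and whiskers reach the 5th and 95th percentiles over genes. The LINC box lies lowest in the middle panel, with a median of -1.75, and highest in the right panel, with a median of 1.86.

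LINC01950 (ENSG00000251027), a gene of 196 kb on chromosome 5 (chr5:106815197-107011052) whose nearest protein coding gene is EFNA5, showed the highest difference. It had 116, 128 and 136 normalised reads in the inputs and 99.9, 141 and 108 in the PABPN RIPs, but 5.22, 2.66 and 2.99 in the PABPC RIPs. The PABPN RIP libraries thus overlapped with input, and the PABPC RIP libraries lay far below both. PABPN RIP exceeded PABPC RIP by 4.80 ± 0.295 (log2 difference ± SE, adjusted p = 4.39e-08). These PABPC values rest on 5, 2 and 2 reads.

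LINC01611 (ENSG00000231776), 135 kb from start to end on chromosome 6 (chr6:84421028-84556152), had 387, 282 and 323 normalised reads in the inputs, 212, 229 and 284 in the PABPN RIPs and 6.26, 13.3 and 10.5 in the PABPC RIPs. Its difference between the RIPs was 4.58 ± 0.337 (adjusted p = 1.71e-07). LINC01122 (chr2:58427738-59063766), with 12 exons over 636 kb, was more abundant. It had 810.0, 523 and 559 normalised reads in the inputs, 432, 518 and 711 in the PABPN RIPs and 19.8, 34.5 and 19.4 in the PABPC RIPs. In both genes the PABPC RIP libraries were below every other library, and for LINC01122 the difference between the RIPs was 4.48 ± 0.41 (adjusted p = 1.03e-06).

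LINC02197, LINC00970 and LINC00378 completed the 6 highest. Group means of LINC02197 were 215 ± 24.7 normalised reads in input (SD, n = 3), 203 ± 16.1 in PABPN RIP and 9.52 ± 2.55 in PABPC RIP. Those of LINC00970 were 136 ± 11.8, 103 ± 9.38 and 6.11 ± 5.77, and its PABPC RIP libraries spread from 1.33 to 12.5. For LINC00378 they were 121 ± 21.6, 96.1 ± 12.1 and 5.85 ± 0.486. PABPN RIP over PABPC RIP was between 3.89 and 4.34 in these 3 genes. None of the 6 passed the test in PABPN RIP over input.

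**Figure D2:**
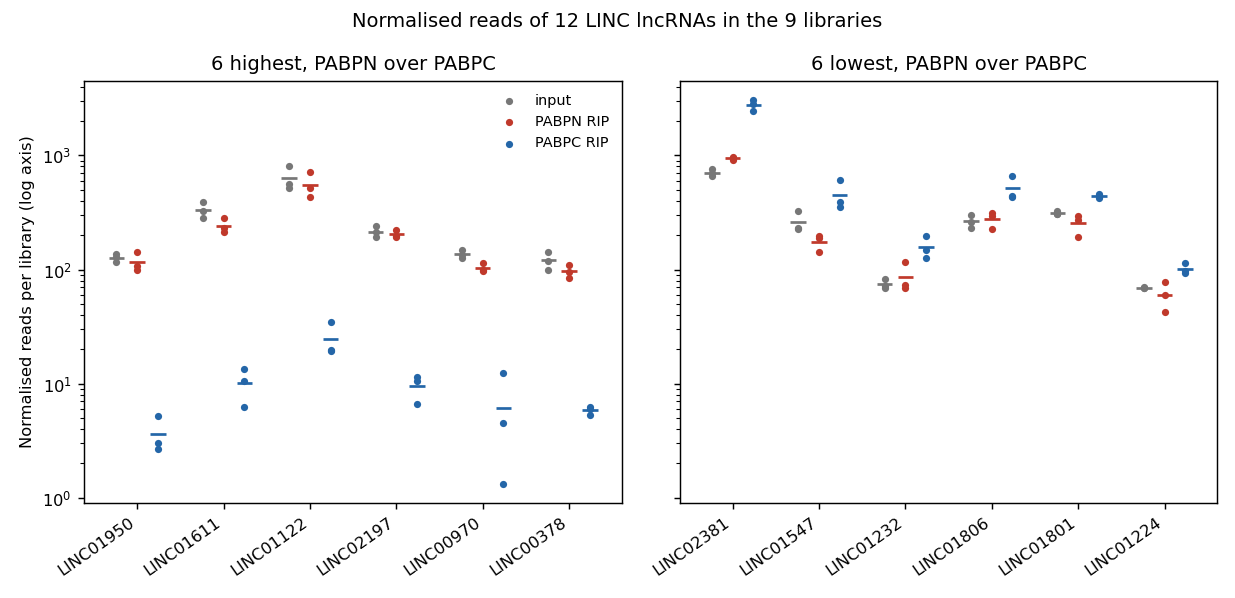
Normalised reads (log axis) in each of the 3 input, 3 PABPN RIP and 3 PABPC RIP libraries for the 6 LINC lncRNAs with the highest and the 6 with the lowest PABPN over PABPC difference. Points are libraries and lines are group means. On the left the PABPC RIP points lie far below the rest, and on the right they lie above the PABPN RIP points.

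At the other end, 9 members favored PABPC. LINC02381 (ENSG00000250742), a gene of 21.5 kb on chromosome 12 (chr12:54126019-54147485), had 659, 764 and 699 normalised reads in the inputs, 964, 946 and 915 in the PABPN RIPs and 2453, 2833 and 3049 in the PABPC RIPs. The 3 groups did not overlap. PABPN RIP was lower than PABPC RIP by -1.55 ± 0.091 (log2 difference ± SE, adjusted p = 3.07e-08). Its span overlaps SMUG1, which lies on the opposite strand.

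LINC01547 (chr21:44932814-44939941), which starts 84 bases from the divergent gene SLX9, had 328, 230.2 and 225 normalised reads in the inputs, 188, 141 and 196 in the PABPN RIPs and 612, 394 and 354 in the PABPC RIPs. No PABPN RIP library reached the lowest input, and no PABPC RIP library fell to the highest. The difference between the RIPs was -1.37 ± 0.236 (adjusted p = 0.000199). LINC01232, LINC01806, LINC01801 and LINC01224 followed with -0.91, -0.89, -0.83 and -0.79, and LINC01003, LINC02846 and LINC01719 had -0.79, -0.74 and -0.70. A part of LINC01719 (30.7% of the stretches of 75 bases in its transcript, the read length) occurs also in PDE4DIP and its copies, so that its reads are less certain. The same holds for other members, as 13 shared at least 10% of such stretches with genes elsewhere. Among these were LINC01106 (86.9%), called higher with PABPN RIP than in input, and LINC00863 (43.4%), called higher with PABPC RIP than in input.

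Of these 9 calls, 4 were lost when any of several single libraries was left out, while their differences stayed negative. Without PABPN RIP a or without PABPC RIP a, 5 members were lower with PABPN RIP than with PABPC RIP in place of 9. LINC01003, LINC01224, LINC01232 and LINC02846 lost the call when either of these libraries was left out, with differences from -0.52 to -0.81, and also without PABPN RIP b (-0.57 to -0.82). LINC01224 was also not called without PABPC RIP b (-0.82), and LINC02846 without input b (-0.74), PABPC RIP b (-0.83) or PABPC RIP c (-0.81). With factors from the totals of recovered reads these 4 and LINC01719 were not called, at -0.46 to -0.68. LINC02846 was also not called in limma-trend, at -0.72 with a pseudocount of 1 and -0.70 with 5.

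The next question was how each RIP stood against total RNA. PABPC RIP held far less of these transcripts than input did. Of the 164 members, 119 were lower with PABPC RIP than in input and 17 were higher, against 32.9% lower and 36.9% higher over all genes tested. In 2 members, LINC01315 and LINC01116, the input mean was 50 or less on the scale of the PABPN table. They thus passed the rule only through their RIP values, and among the other 162 members 15 were higher. Values on the PABPC table's own scale are lower by a factor of 1.17. On that scale LINC01560, among these 15 and with an input mean of 50.5 here, was under 50 in input. It passed that table only through PABPC RIP, as did some members that were not called. The median difference was -1.75 (log2), and 71 members were below -2. The same median was -0.94 over other lncRNAs and 0.39 over protein coding genes. Reads on the members made up between 1.92 and 2.11% of all reads on the genes tested in the 3 input libraries and between 1.79 and 2.04% in the PABPN RIPs, but between 0.618 and 0.715% in the PABPC RIPs.

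The lowest PABPC RIP values over input belonged to 4 genes already described. These were LINC01611 (-5.04 ± 0.334, adjusted p = 8.84e-08), LINC01950 (-4.94 ± 0.295, adjusted p = 4.37e-08), LINC00970 (-4.73 ± 0.436, adjusted p = 1.19e-06) and LINC01122 (-4.69 ± 0.409, adjusted p = 7.66e-07). Per kilobase of exonic length, the highest input levels were those of LINC02340 (787 normalised reads per kb), LINC02062 (561), LINC00159 (547), LINC02820 (489) and LINC01611 (446). All 5 were lower with PABPC RIP than in input, by between -2.20 and -5.04. As intron reads are in the count, these levels per kb of exon are too high for genes with long introns.

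LINC02062, now named CHD1-DT because it starts 156 bases from the CHD1 gene and runs away from it, had 1277, 1316 and 1404 normalised reads in the inputs, 1509.5, 1740.3 and 1578 in the PABPN RIPs and 186, 242 and 215 in the PABPC RIPs. All PABPN RIP libraries were above input and all PABPC RIP libraries below. PABPC RIP over input was -2.65 ± 0.128 (adjusted p = 1.27e-08), while PABPN RIP over input, at 0.27 ± 0.08 (adjusted p = 0.0155), did not pass the test. LINC02340, which starts 74 bases from the ribosomal protein gene RPL21, had 864 ± 183, 902 ± 297 and 162 ± 40.4 normalised reads in input, PABPN RIP and PABPC RIP (mean ± SD, n = 3).

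The 17 members that were higher with PABPC RIP than in input were mostly short genes, 14 of them with a span of at most 30.4 kb. These 14 include LINC01560, LINC01315 and LINC01116, which passed the PABPC table only through PABPC RIP, so the count is a description with no test. LINC01003 (chr7:152463786-152465549), a gene of 1 exon, had 80.4, 57.5 and 58.1 normalised reads in the inputs, 162, 141 and 189.6 in the PABPN RIPs and 385, 226 and 243 in the PABPC RIPs. The 3 groups did not overlap. PABPC RIP exceeded input by 2.11 ± 0.257 (adjusted p = 1.23e-05). LINC02381 followed with 1.97 ± 0.10 (adjusted p = 1.51e-08).

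LINC02846 and LINC01521 were next, both at 1.39 over input. LINC02846, a gene of 1.62 kb, had 112, 105 and 61.4 normalised reads in the inputs and 290.0, 209.8 and 215 in the PABPC RIPs. LINC01521, 1.94 kb long and of 1 exon, had 182, 118 and 129.6 in the inputs and 455, 329 and 328 in the PABPC RIPs. In both genes every PABPC RIP library was above every input. The call of LINC01547 in this comparison (0.80 ± 0.224, adjusted p = 0.00611) was lost without input b (0.71), input c (0.70) or PABPC RIP a (0.53), and that of LINC01801 (0.50, adjusted p = 0.00737) was at the threshold and was lost without any of the 3 inputs or 3 PABPC RIPs (0.47 to 0.53). Scaled by totals, 10 members were higher in place of 17, and LINC01547, LINC01801, LINC01232, LINC01806 and LINC01694 were among those that lost the call, with 0.42, 0.12, 0.71, 0.56 and 0.55. Over all genes tested, 1587 were higher on that scale in place of 2182.

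With PABPN RIP the members stayed close to input. Of the 164, 21 were higher with PABPN RIP and 4 were lower, against 20.8% higher and 8.15% lower over all genes tested. Among the 162 members with an input mean above 50, 20 were higher. The share of members called higher was 12.8%, below that background, and in other lncRNAs it was 27.8%. The median difference of the members was 0.01 (log2), with quartiles of -0.28 and 0.39. Over all genes tested it was 0.09, with quartiles of -0.25 and 0.53. At an unadjusted p under 0.05 there were 69 of 164 (42.1%), against 54.7% of all genes tested. Members spread more between libraries, with a median SD (log2) of 0.197 in input and 0.215 in PABPN RIP. Over all genes tested these were 0.148 and 0.167. A larger spread makes calls harder to reach, and its part in the lower shares was not tested. These counts depended on the libraries and on the scale. There were 12 higher without input b or without input c. Lower were 1 without either of these, 2 without PABPN RIP a, 0 without PABPN RIP b (with 16 higher) and 7 without input a or without PABPN RIP c. With factors from the totals of recovered reads, which moved the median of all genes from 0.09 to -0.05, 16 were higher and 16 lower. With each comparison centred on the median of all genes there were 18 and 12. Of the 5916 genes tested, 1228 were higher and 482 lower before either change of scale. These numbers were 944 and 827 when scaled by totals, and 1032 and 675 when centred.

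The highest PABPN RIP values over input were those of 3 genes of 1 exon and of LINC00461. LINC01560 (ENSG00000196741), on the X chromosome (chrX:47483571-47484823) and 349 bases from the divergent gene ZNF41, had 49.4, 58.6 and 43.6 normalised reads in the inputs, 184, 172 and 201 in the PABPN RIPs and 126, 124 and 115 in the PABPC RIPs. Both RIPs were above input in every library. The differences were 1.87 ± 0.165 with PABPN RIP (adjusted p = 6.55e-06) and 1.27 ± 0.178 with PABPC RIP. Its input mean of 50.5 is under 50 on the PABPC table's own scale, where values are lower by a factor of 1.17. It thus passed that table only through PABPC RIP, and its PABPC RIP difference is a description with no test. LINC01560 was also higher with PABPN RIP than with PABPC RIP (0.60), a call that was lost without PABPC RIP c (0.57) and on the centred scale (0.33).

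LINC01311 (chr22:19171395-19172851) had 172, 177 and 181 normalised reads in the inputs, 478, 419 and 449 in the PABPN RIPs and 257, 229.7 and 233 in the PABPC RIPs, again with no overlap. It was higher with PABPN RIP by 1.34 ± 0.114 (adjusted p = 5.04e-06), while its PABPC RIP difference of 0.45 was under the cut-off. LINC01003, described above, was higher with PABPN RIP by 1.32 ± 0.264 (adjusted p = 0.00172), and this call was lost without input b (1.24) or input c (1.25). The 4 genes that were lower with PABPN RIP than in input, LINC02177, LINC00326, LINC01725 and LINC00310, fell by 0.88, 0.81, 0.79 and 0.51 on the log2 scale. Each was lower with PABPC RIP as well, by -1.97 to -4.51. None of these 4 PABPN calls held in every setting. All 4 were lost without PABPN RIP b (-0.54 to -0.80), LINC02177, LINC00326 and LINC00310 without input b (-0.51 to -0.82) or input c (-0.44 to -0.84), LINC02177 and LINC01725 without PABPN RIP a (-0.92 and -0.76), and LINC00310 without PABPN RIP c (-0.39), PABPC RIP b (-0.51) or PABPC RIP c (-0.51).

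**Figure D3:**
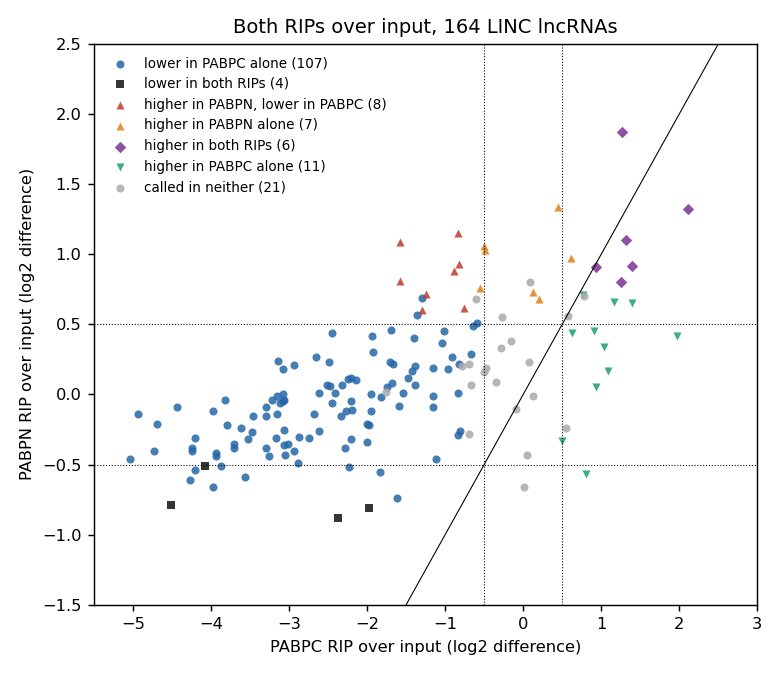
PABPN RIP over input against PABPC RIP over input (log2 differences) for 164 LINC lncRNAs, marked by their calls, with the number of genes in brackets. Dotted lines mark differences of 0.5 and -0.5, and the solid line marks equal differences. Most genes, 107, lie on the left near 0 on the vertical axis, lower with PABPC RIP and not called with PABPN RIP.

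Taking both RIPs for each gene, the commonest pattern was lower with PABPC RIP and no call with PABPN RIP, which was seen in 107 members (65.2%, against 27.5% of all genes tested), of which 105 were higher with PABPN RIP than with PABPC RIP. A further 8 members were higher with PABPN RIP and lower with PABPC RIP than input (4.88%, against 3.08%), and none showed the reverse, which 4.65% of all genes tested did. The remaining patterns were no call in either RIP (21 members, 12.8%, against 20.7% of all genes tested), higher with PABPC RIP alone (11, 6.71% against 22.9%), higher with PABPN RIP alone (7, 4.27% against 8.32%), higher with both (6, 3.66% against 9.36%) and lower with both (4, 2.44% against 2.37%). The RIPs share the input libraries, so these calls are not independent of each other.

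The 8 members with opposite calls included LINC00461 (ENSG00000245526, chr5:88507546-88691057), a brain-enriched transcript that is the host of a neuronal miRNA. It had 257, 252 and 283 normalised reads in the inputs, 606, 560.1 and 592 in the PABPN RIPs and 144, 149 and 146 in the PABPC RIPs. The libraries of each group lay close together and well apart from the other groups. The differences from input were 1.15 ± 0.098 with PABPN RIP (adjusted p = 5.04e-06) and -0.84 ± 0.126 with PABPC RIP (adjusted p = 6.77e-05).

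LINC01356 and LINC01357 are neighbors on chromosome 1, on opposite strands, and their first 823 bases overlap. LINC01356 (chr1:112820170-112850643, minus strand) had 112, 117 and 82.7 normalised reads in the inputs, 198, 172 and 315 in the PABPN RIPs and 32.3, 37.2 and 32.8 in the PABPC RIPs. LINC01357 (chr1:112849821-112877878, plus strand) had 156, 118 and 144 in the inputs, 220.2, 214 and 259 in the PABPN RIPs and 61.6, 50.5 and 62.7 in the PABPC RIPs. In both genes the 3 groups did not overlap. PABPN RIP over input was 1.09 ± 0.235 for LINC01356 (adjusted p = 0.00279) and 0.72 ± 0.149 for LINC01357 (adjusted p = 0.00205), and PABPC RIP over input was -1.58 and -1.25. The PABPN call of LINC01356 was lost without input c (0.94) and that of LINC01357 without input b (0.61).

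LINC01409, LINC02804 and LINC01089 shared this pattern. LINC01409 had group means of 208 ± 32.9 normalised reads in input, 363 ± 30.8 in PABPN RIP and 69.1 ± 7.75 in PABPC RIP (SD, n = 3). LINC02804 had 113 ± 5.11, 215 ± 16.7 and 64.1 ± 10.5. LINC01089, also known as LIMT for its reported part in restraining mammary tumors, had 85.3 ± 9.18, 161 ± 40.5 and 45.5 ± 7.11. PABPN RIP over input was 0.81, 0.93 and 0.88 in the 3 genes. The calls of LINC01089 were the least certain of these. Its PABPN call was lost without any of the 3 inputs, PABPN RIP b or PABPN RIP c (0.70 to 0.94) and when scaled by totals (0.73), and its PABPC call (-0.89, adjusted p = 0.00796) without any 1 of the 3 inputs, the 3 PABPC RIPs or PABPN RIP b (-0.77 to -0.98).

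Higher in both RIPs were LINC01560, LINC01003, LINC01315, LINC00667, LINC01521 and LINC01694. LINC01315 had 48.4, 42.3 and 57.0 normalised reads in the inputs, 105, 108 and 104 in the PABPN RIPs and 139, 104 and 125 in the PABPC RIPs, and both RIPs were above input. Its input mean of 49.3 was under the mean that chose the members, so that it could pass only by being higher in the RIPs, and its values are a description with no test. The PABPN call of LINC01521 (0.92 ± 0.193, adjusted p = 0.0023) was lost without input b (0.80) or input c (0.86), and that of LINC00667 (0.80 ± 0.165, adjusted p = 0.00211) without input b (0.81), input c (0.75) or PABPN RIP b (0.74). LINC01694 was near the threshold in both RIPs (0.91 and 0.93). Its PABPN call was lost without input b, input c, any of the 3 PABPN RIPs or PABPC RIP c (0.77 to 0.99), when scaled by totals (0.77) and when centred (0.82). Its PABPC call was lost without input b, input c or PABPC RIP a (0.65 to 0.91) and when scaled by totals (0.55).

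Among the 21 members called in neither RIP, LINC00467 and LINC00235 were the nearest to input in both. LINC00467 (chr1:211382736-211435570) has been reported to encode a small protein, and it was the only member among 6 LINC genes listed for such proteins. It had 262, 202 and 136 normalised reads in the inputs, 154, 138 and 291 in the PABPN RIPs and 265, 150.1 and 143 in the PABPC RIPs. The groups overlapped widely. Its differences from input were -0.10 ± 0.323 and -0.09 ± 0.34. LINC00235, a gene of 1 exon on chromosome 16, had 383 ± 41.9, 381 ± 24.5 and 419 ± 118 in input, PABPN RIP and PABPC RIP. LINC01504 and LINC00663 were also called in neither, with PABPN RIP values of 0.33 and 0.68 and PABPC RIP values of -0.29 and -0.61 over input, none of which passed the test. LINC00663 was however higher with PABPN RIP than with PABPC RIP (1.29 ± 0.38, adjusted p = 0.00807). That call was lost without PABPN RIP c (0.90), when centred (1.02) and in other settings. Of the 21, 7 were higher with PABPN RIP than with PABPC RIP and 1 was lower, against 41.9% and 30.1% of all genes tested.

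Since a LINC name goes to genes that lie apart from coding genes, the naming itself bears on where the members lie, and their overlaps are a description. Of the 209, 167 overlapped no protein coding gene on either strand (79.9%, against 32.8% of the other lncRNAs), and 28 started within 1000 bases of a divergent protein coding gene (13.4%, against 40.8%). Their median span was 93.4 kb with 4 exons, compared with 31 kb and 3 exons in the other lncRNAs and 37.9 kb and 9 exons in protein coding genes. All 209 were still lncRNAs in GENCODE release 44, where 12 had a new name. Among these were LINC02163, now NIHCOLE, LINC01197, now LETR1, and 9 now named as divergent transcripts (DT) of a neighbor.

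PABPC RIP values were lower in members with longer genes. Of the members with the shortest spans, up to 30.4 kb, 25 of 55 were lower with PABPC RIP than in input and 14 were higher, with a median of -0.55 (log2). These 14 include LINC01560, LINC01315 and LINC01116, which passed the PABPC table only through PABPC RIP. Of the members with the longest spans, above 121 kb, 52 of 55 were lower and 0 were higher, with a median of -3.08. The 54 in between had a median of -1.88. Across genes, Spearman's rho of span with PABPC RIP over input was -0.68 (n = 164), whereas it was -0.04 with exonic length. The points of these correlations are genes that share the same libraries and depth. The other lncRNAs showed the same order, with medians of 0.06, -1.62 and -2.72 in the same 3 ranges of span and a rho of -0.64 (n = 1208).

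**Figure D4:**
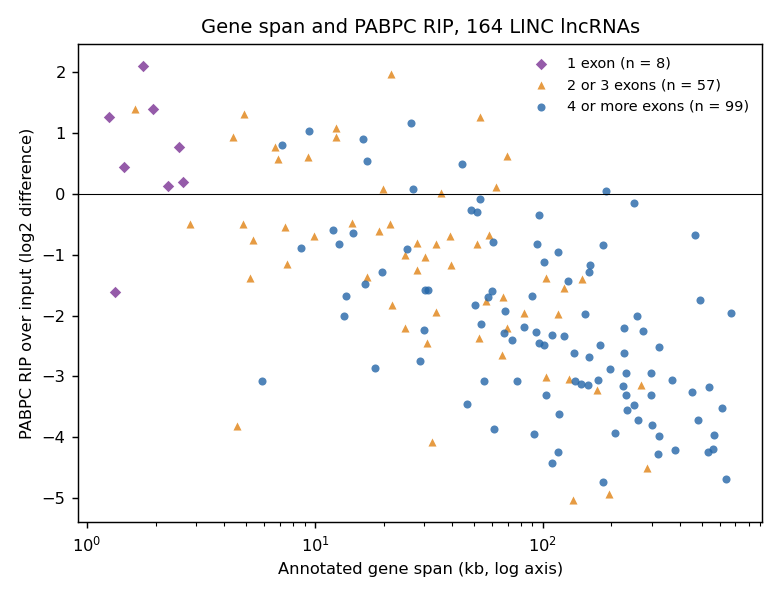
PABPC RIP over input (log2 difference) against the annotated gene span (kb, log axis) for 164 LINC lncRNAs, marked by the number of exons of the canonical transcript. Genes of 1 exon lie at the short end, 7 of 8 of them above 0, and nearly all genes with spans above 121 kb lie below 0. LINC01560 and LINC00638, each of 1 exon and above 0, passed the PABPC table only through PABPC RIP.

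With PABPN RIP the same order was seen over a smaller range. The medians of PABPN RIP over input were 0.45, 0.01 and -0.21 from the shortest to the longest range. In these ranges 16, 4 and 1 members were higher, and rho with span was -0.51. The other lncRNAs had medians of 0.560, 0.185 and -0.158 in the same ranges and a rho of -0.485 (n = 1208). By exon number, 5 of the 8 members of 1 exon were higher with PABPN RIP than in input (median 0.81) and 3 were higher with PABPC RIP (median 0.61). Of these 8, LINC01560 and LINC00638 were under 50 in input on the PABPC table's own scale. They passed that table only through PABPC RIP. LINC01560 is among the 3 called, so these PABPC RIP values are a description with no test. Of the 99 members with 4 or more exons, 6 were higher with PABPN RIP (median -0.10) and 84 were lower with PABPC RIP (median -2.32). Over all genes tested, 20.8% were higher with PABPN RIP, and with PABPC RIP 36.9% were higher and 32.9% lower. Other lncRNAs showed the same order by exon number. With 1 exon (n = 125) their medians were 0.745 with PABPN RIP and 0.844 with PABPC RIP. With 4 or more exons (n = 474) they were 0.042 and -1.721. Members with and without a hexamer in the last 50 bases had about the same medians of PABPC RIP over input, -1.75 (n = 84) and -1.76 (n = 80). In other lncRNAs the medians differed, at -0.690 with a hexamer (n = 510) and -1.174 without (n = 698).

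The 45 members without reads per library were mostly the more abundant ones, with a median of 2611 normalised reads over both tables. Their lowest mean was 828, and the highest mean among the 164 members with reads was 1157. For these genes the means were compared after setting the PABPC table on the scale of the shared inputs. As each mean is the average of the same inputs and of a RIP, a ratio of PABPN table to PABPC table above 1 is a lower bound on the ratio of the PABPN RIP mean to the PABPC RIP mean. There is no error on these values. In 40 of the 45 genes (88.9%) the PABPN table mean was the higher one, against 48.3% of all 8665 genes without reads per library. These means are the values that chose the members, so this count is a description, and nothing is read from it. The ratio was at least 1.5 in 35 genes and at least 2 in 2 genes.

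The highest ratios were 2.27 for LINC01237 (a PABPN table mean of 1708 against 752 for PABPC on the common scale) and 2.18 for LINC01004 (4139 and 1901). LINC00511, LINC00472 and LINC01619 followed with 1.96, 1.93 and 1.88. The most abundant member, LINC01515, had means of 20805 and 12021 and a ratio of 1.73. LINC02163, whose newer name NIHCOLE refers to a reported part in DNA end joining, had 16038 and 8828 (1.82), and LINC01876 had 13810 and 7757 (1.78).

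The 5 abundant members with the higher mean in the PABPC table were LINC00665, LINC01128, LINC02693, LINC00963 and LINC00205. LINC00665 had means of 2350 and 3231, which is 1.37 times more in the PABPC table. LINC01128 and LINC02693 had 1.27 and 1.24 times more. LINC00963 and LINC00205, with 1.16 and 1.02 times more, were closer to equal. Of the stretches of 75 bases in the transcript of another member, LINC01535, 8.97% occur in LINC00665 as well.

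**Figure D5:**
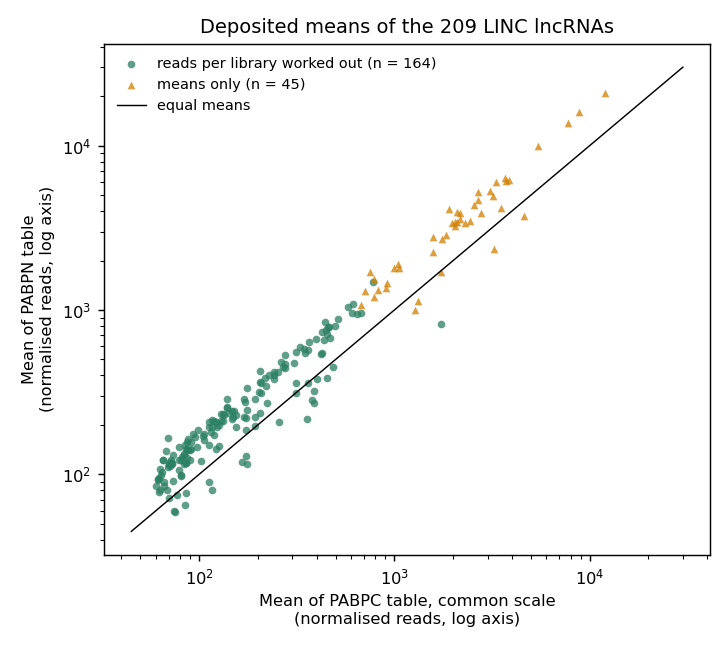
Mean normalised reads of the PABPN table against those of the PABPC table on the common scale (both log axes) for all 209 LINC lncRNAs. Circles are the 164 genes with reads per library, triangles are the 45 genes with means only, and the line marks equal means. Most points of either kind lie above the line, among them 40 of the 45 triangles.

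Well studied lncRNAs with other names gave a setting for these values, again from the means alone. Of 20 such genes 18 were above 50 in both tables, and 14 of these had the higher mean in the PABPN table. Among all genes above 50 in both without reads per library, 48.3% did. The ratio was 3.45 for NEAT1, the scaffold of paraspeckles in the nucleus, and 1.41 for MALAT1, a resident of nuclear speckles. It was 1.85 for FTX and 1.61 for JPX, both from the X inactivation center, and 1.82 for LINC-PINT, which carries no LINC number. The 4 with the higher mean in the PABPC table were DANCR (2.6 times), NORAD (1.86 times), OIP5-AS1 (1.37 times) and GAS5 (1.09 times). NORAD is known as a cytoplasmic RNA that binds Pumilio proteins.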

How the data were processed

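The deposited tables hold, for PABPN RIP with input and for PABPC RIP with input, a signal column made by the authors, the mean over 6 libraries of reads divided by DESeq2 size factors. Per the methods, reads were aligned to hg38 with STAR and counted with featureCounts 2.0.2 over introns and exons of an annotation from GENCODE release 34, without stretches shared by genes. The length column was used as exonic length. The 5 columns of the authors' own comparisons in each table (fold change, its error, statistic, p and adjusted p) were not used.

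Reads per library were worked out from the means, which carry 15 significant digits. The 6 most frequent values above 0 in a table are those of genes with 1 read and give its 6 size factors. The 3 libraries found in both tables are the inputs, since each table is a RIP with the same inputs. This and not a column label sets the groups of the libraries. A lattice search gave the whole reads in 9 libraries that fit both means of a gene, accepted where 1 solution stood alone. For 2856 of the 5916 genes so recovered no likeness of libraries was assumed. For the rest the solution with libraries most alike within groups was taken, which can make the spread within groups too small. The limits of acceptance were set after seeing the files. Of genes with means under 1000, 97% were recovered, and above that 3.22%. PABPC libraries were set on the scale of the PABPN table by the ratio of the input factors, 1.17 (1.163 to 1.182 over the 3 inputs).

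Differences were fitted with limma 3.58.1 (voom, eBayes) in 1 model of 9 libraries and 3 groups, without a replicate block. Calls needed an adjusted p of at most 0.01 (Benjamini-Hochberg over 5916 genes) and a difference beyond 0.5. The search and the fit were tested on simulated data. Both tables repeated 123 rows, of which the first was kept. Gene structure was read from GENCODE release 44 (hg38). The genes named are the extremes of each comparison, those called in opposite directions or in neither, the highest per kb, those at the threshold and fixed lists. LINC01315, LINC00667, LINC01694, LINC01719, LINC01116, LINC00638, LINC01106, LINC00863 and the examples of abundant, renamed and left-out genes were named after their values were seen. The members and lists were chosen with earlier results of these data known.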

Additional observations from a re-analysis of the deposited data

How the results depend on the processing

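No paired analysis was possible because the deposited means carry no replicate numbers and the libraries worked out from them cannot be tied to the labels, and no pairing was taken from their values. Variation between lysates thus stayed in the error of each difference, and its effect on the calls was not tested. PABPC RIP against input and PABPN RIP against PABPC RIP kept their main direction in all 21 settings. Members lower with PABPC RIP numbered 67 with means above 100 (93 members left) and 35 with means above 200 (47 left), and members higher with PABPN RIP than PABPC RIP 72 and 36, since fewer genes remained. Medians moved with the scale. Scaled by totals, PABPC RIP over input had a median of -2.13 and PABPN RIP over PABPC RIP of 2.09, which was 1.59 when centred, and PABPC RIP over input was -1.99 with means above 200. Members higher with PABPC RIP numbered 10 scaled by totals, 11 with means above 100, 9 with means above 200, 11 of 119 where no likeness of libraries was assumed, 10 beyond a difference of 1, and 13 to 17 without 1 library. Members lower with PABPN RIP than PABPC RIP numbered 4 scaled by totals, 14 when centred, 4 with means above 200, 2 beyond a difference of 1, and 5 to 10 without 1 library. All genes tested moved with the scale too. Lower with PABPN RIP than PABPC RIP were 1780 of them, 1512 scaled by totals and 2126 when centred.

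PABPN RIP over input was the least stable. Members higher numbered 10 with means above 100, 4 with means above 200, 8 beyond a difference of 1, and 12 to 22 without 1 library. Members lower numbered 16 scaled by totals, 12 when centred, 0 in limma-trend with pseudocount 1 and 2 with pseudocount 5, 2 with means above 200, 0 beyond a difference of 1, 7 with no threshold on the difference, 11 at an adjusted p of 0.05, and 0 to 7 without 1 library. Over all genes tested, 482 were lower, 827 when scaled by totals and 675 when centred. For 42 members named in the text, 1840 of 1959 values kept the direction and the side of the threshold, 113 lost a call, 6 gained one and 0 reversed. The causes were not tested. At this depth the PABPC RIP values of LINC01950, LINC01611 and LINC00970 rest on 1 to 12 reads a library. Those of LINC02197 and LINC00378 were similarly low.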

Other observations

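The rule on means left out LINC genes that were low with PABPC RIP. Of the 61 LINC genes above 50 in the PABPN table only, all 61 had reads per library. A mean above 50 with PABPN and not with PABPC favors genes that are low with PABPC RIP. The scale also took part, since values in the PABPC table are lower by a factor of 1.17. LINC02137 and LINC01498, with 49.8 and 49.5 in that table, had 58.3 and 57.9 on the scale of the PABPN table. In 47 of them the 3 PABPC RIP libraries were all below the 3 inputs (39% of all genes tested were), in 1 they were all above (43.8%), and the median ratio of the input mean to the PABPC RIP mean was 4.37. In 59 the 3 PABPN RIP libraries were all above the 3 PABPC RIP libraries (48%). LINC01812 stood lowest, with 60.1, 60.8 and 59.2 normalised reads in the inputs, 37.1, 41.7 and 54.4 in the PABPN RIPs and 1.04, 1.33 and 0.00 in the PABPC RIPs. The 3 genes above 50 in the PABPC table only, LINC01976, LINC00337 and LINC00652, had all PABPC RIP libraries above all inputs. For LINC01976 the means were 27.6 normalised reads in input, 58.6 in PABPN RIP and 112 in PABPC RIP. As the means chose these genes, the counts are descriptions with no test.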
